A study of Mus musculus with 4 samples.

Results

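Blood vascular endothelial cells of the E14.5 (embryonic day) mouse kidney were selected on marker transcripts, and 913 of 15144 deposited cell barcodes met the rule. A barcode was taken when mitochondrial (mt-) genes gave at most 10% of its unique molecular identifiers (UMIs, the tags that count single mRNA molecules), when at least 3 UMIs in sum came from Pecam1, Cdh5, Kdr, Flt1, Plvap, Esam and Fabp4 with at least 1 of them not from Fabp4, and when it held 0 UMIs of Prox1, Ccl21a, Gm13304 and Gm21541, which mark or accompany lymphatic endothelium. Kidney cell suspensions had been run through Drop-seq, which captures the 3′ ends of mRNA from single cells on barcoded beads. There were 2 wildtype libraries and 2 libraries of the genotype Hoxa9,10,11 and Hoxd9,10,11 -/-, all on a mixed background that was mostly CD-1 and 129, with no further treatment stated for either group. Each library is named below by its genotype and number. The endothelial cells numbered 140 in wildtype 1, 306 in wildtype 2, 45 in mutant 1 and 422 in mutant 2. The labels do not say whether the 2 libraries of a genotype came from separate animals or pools, so p-values measure only the spread between these libraries.

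Blood endothelium lines the arteries, veins and capillaries of the kidney, including the fenestrated capillaries of the glomerulus. Its cells take up vascular endothelial growth factor signals through Kdr and Flt1, hold together through the junction proteins Cdh5, Pecam1 and Esam, and divide while the vascular tree follows the growing nephrons. Arterial fate depends on Notch signalling and SoxF factors, venous fate on Nr2f2, and lymphatic fate on Prox1. Abd-B type Hox genes pattern the posterior body and are expressed in kidney mesenchyme and epithelium.

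The libraries held 2113, 5542, 1061 and 6428 barcodes in the order wildtype 1, wildtype 2, mutant 1, mutant 2, with total counts between 3572346 and 24834658. The share of barcodes above the mt- limit was 7.76%, 9.06%, 19.6% and 29.1%. Endothelial cells had median UMI counts of 3766, 3282, 3387 and 4165, and the sum over them was 715738, 1397459, 181296 and 2257718 UMIs. Mutant 1 thus rested on the fewest cells, and 1 UMI there was worth 5.52 CPM (counts scaled to the same total in each summed cell set, the scale of all levels below). Only 3 barcode sequences occurred in more than 1 library, and none of them was a selected endothelial cell in both of its libraries.

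As a share of barcodes within the mt- limit, blood endothelium made up 7.18% of wildtype 1 (95% Clopper-Pearson interval 6.08 to 8.42), 6.07% of wildtype 2 (5.43 to 6.77), 5.28% of mutant 1 (3.87 to 6.996) and 9.26% of mutant 2 (8.43 to 10.1). These intervals cover counting error only. The mutant libraries lay on either side of the wildtype pair. The mean was 6.63% ± 0.786 (SD, n = 2) in wildtype and 7.27% ± 2.82 (SD, n = 2) in mutant, a difference of 0.641 percentage points with p = 1 in a two-sided exact permutation test, whose smallest possible p with 2 against 2 libraries is 0.333. Without the mt- limit the difference was -0.363 points. That limit removed 14.4% of otherwise selected cells in mutant 2, 0% in mutant 1, 3.45% in wildtype 1 and 4.38% in wildtype 2. Cells carrying a lymphatic UMI and otherwise meeting the rule numbered 3, 4, 4 and 32.

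**Figure D1:**
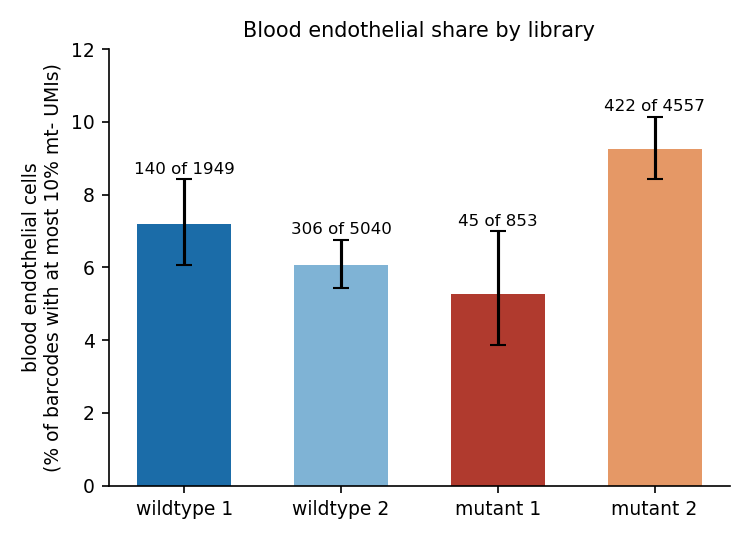
Blood endothelial cells as a percentage of barcodes with at most 10% mt- UMIs in each library; bars give the share, error bars the 95% Clopper-Pearson interval, and the numbers above them the cells and the denominator. Mutant 2 is highest at 9.26% and mutant 1 lowest at 5.28%, with both wildtype libraries between them.

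The label was checked with 16 endothelial genes that the rule did not use, among them the receptors Tek and Tie1, the secreted factor Egfl7 and the sialomucins Emcn and Cd34. Their summed level was 3742, 3406, 4462 and 3988 CPM in the selected cells and between 124 and 255 CPM in all other cells within the mt- limit. Macrophage and other immune genes summed to at most 9.78 CPM in the endothelial cells of every library, against 98.5 to 350 CPM elsewhere. Stromal genes reached 159, 420, 154 and 886 CPM in the selected cells and 2117, 1102, 6502 and 7131 CPM in the others. The genes of the rule itself are given as a description, since they chose the cells. Fabp4, a fatty acid carrier of capillary endothelium, stood at 2885, 1918, 1285 and 1968 CPM in the selected cells, and at 3.52 to 31.9 CPM in the others. Kdr, the main signalling receptor for vascular endothelial growth factor, stood at 511, 312, 320 and 662 CPM. Cdh5, the endothelial cadherin, was at 362, 248, 474 and 539 CPM. Both genes had their highest value in mutant 2. Pecam1, Flt1, Plvap and Esam lay between 150 and 590 CPM in the selected cells of all 4 libraries. UMIs of 2 or more different genes of the rule were present in 139, 303, 44 and 413 of the cells.

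Cells at the edge of the rule carried less of the independent marker set. Those with exactly 3 UMIs of the 7 genes (9, 41, 4 and 26 cells) held 1536, 1413, 3919 and 996 CPM of the 16 independent genes. Barcodes with 2 such UMIs, just outside, held 316, 342, 1485 and 556 CPM. Cells with 5 or more UMIs held 3731 to 4503 CPM. No doublets were removed for the main values. UMIs of another lineage list, at least 3 in sum, occurred in 15%, 19.3%, 13.3% and 22.5% of the endothelial cells, and 4, 39, 1 and 22 of the endothelial cells were among the 5% highest Scrublet doublet scores of their library. The lineage lists include Jag1, which is also in the arterial list, and Stmn2, a leading gene of the arterial-like sub-cluster described below. The share is therefore not a measure of foreign RNA alone, and leaving out such cells can also remove arterial cells.

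Among 2349 genes at 50 CPM or more in the endothelial cells of every library, 175 had at least a 2-fold higher level than in other cells in all 4 libraries (a log2 ratio of 1 or more, with 5 CPM added), 49 of them a log2 ratio of 3 or more, and 6 had a ratio of -1 or less. This contrast is that of the rule and carries no test. The 20 leading genes were Gimap4, Cd34, Icam2, Tmem88, Cd93, Aplnr, Rasgrp3, Egfl7, Gimap6, Rsad2, Gimap1, Ecscr, Mmrn2, Erg, Myct1, Rasip1, Vamp5, Procr, Gpihbp1 and Tie1. Their smallest ratio over the libraries ran from 3.78 for Tie1 to 4.90 for Gimap4.

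Gimap4, a GTPase best known from lymphocytes, stood at 365, 352, 193 and 296 CPM in the endothelial cells, against 3.93, 6.94, 0.639 and 4.19 CPM in the others. The summed immune markers in the same cells were at most 9.78 CPM. Gimap6 and Gimap1 belong to the same gene cluster on chromosome 6 (mm10, GENCODE vM21: Gimap4 at chr6:48684549-48692060, Gimap6 at chr6:48701582-48708225 and Gimap1 at chr6:48739054-48743795). They lay between 223 and 306 CPM and between 137 and 177 CPM. Egfl7, a matrix-bound factor that guides vessel tube formation, was at 891, 651, 982 and 799 CPM, with 17.7 to 38.2 CPM elsewhere. Aplnr, the receptor for apelin, was at 162, 152, 199 and 345 CPM. Rsad2, known as an interferon-induced antiviral protein, was at 291, 167, 127 and 120 CPM and was detected in only 15.6% to 38.6% of the cells. The other leading genes were found in 20.9% to 87.9% of the cells, and no leading gene was found in more than 9.91% of other cells in any library.

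**Figure D2:**
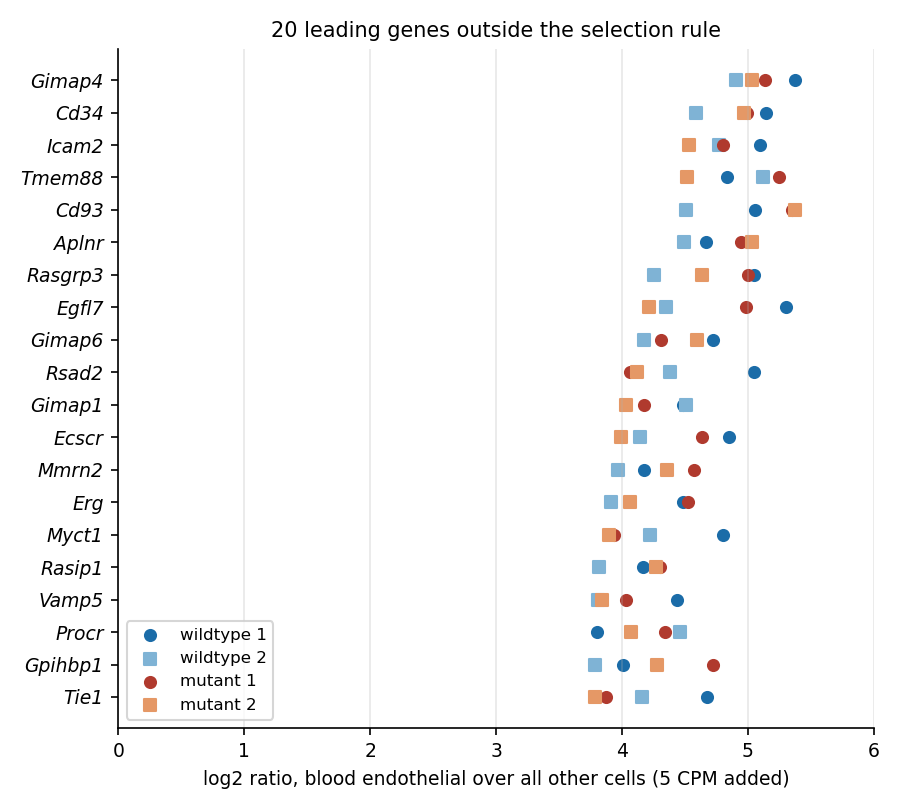
Log2 ratio of the level in blood endothelial cells over that in all other cells within the mt- limit, with 5 CPM added to each, for the 20 leading genes; each point is 1 library. The lowest point of all genes and libraries is at 3.78 and the highest at 5.37.

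ETS family factors such as Erg, Fli1 and Ets1 are core regulators of endothelial genes and bind sites built on a GGAA core. Their own levels were in the range 172, 142, 331 and 167 CPM for Erg and 175, 143, 199 and 167 CPM for Fli1, in the order of libraries used above. Promoter sequences from RefSeq (GRCm38.p6) were searched over the 250 bases before the start for 2 ETS sequences, CCGGAAGT and AGGAAGT, and for the SOX core ACAAT, on both strands. A window was listed for 13 of the 20 leading genes and for 2 of the 7 genes of the rule. AGGAAGT was found in 2 of the 13 (Egfl7 and Rasgrp3) and in 1 of the 2 (Flt1), beside 7.80% of 27025 genes in all. CCGGAAGT was found in 0 of the 13, beside 2.93% of all genes, and ACAAT in 1 of 13, beside 28.4%. The 3 windows with a match are shown because they hold the ETS letters before a start of a gene that marks these cells; capitals mark AGGAAGT or its reverse complement, and each runs 5′ to 3′ on the strand of its gene.
Egfl7 (chr2:26580833-26581082, plus strand): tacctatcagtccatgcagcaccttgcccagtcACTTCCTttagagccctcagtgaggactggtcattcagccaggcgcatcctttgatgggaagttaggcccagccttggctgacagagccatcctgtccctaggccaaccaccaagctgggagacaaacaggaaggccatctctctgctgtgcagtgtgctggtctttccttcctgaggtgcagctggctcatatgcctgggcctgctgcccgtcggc
Flt1 (chr5:147726012-147726261, minus strand): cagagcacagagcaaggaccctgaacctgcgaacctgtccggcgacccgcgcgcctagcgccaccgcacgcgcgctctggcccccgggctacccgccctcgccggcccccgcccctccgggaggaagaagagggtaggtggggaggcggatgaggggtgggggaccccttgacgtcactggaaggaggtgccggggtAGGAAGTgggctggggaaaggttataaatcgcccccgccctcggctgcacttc
Rasgrp3 (chr17:75435655-75435904, plus strand): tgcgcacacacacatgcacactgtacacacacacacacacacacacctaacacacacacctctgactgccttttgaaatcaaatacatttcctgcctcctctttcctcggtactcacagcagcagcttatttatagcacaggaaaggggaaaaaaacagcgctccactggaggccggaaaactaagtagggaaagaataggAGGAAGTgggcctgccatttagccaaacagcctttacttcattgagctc
In Flt1 and Rasgrp3 the match stands close to the start, and in Egfl7 it lies at the far end of the window. RefSeq lists further starts for Egfl7 and Rasgrp3, and the windows shown lie before the first of those listed. In GENCODE vM21 the Egfl7 gene begins further upstream, at position 26580014 of chromosome 2, so that by that annotation its window lies inside the gene. These are matches of letters and show no binding.

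Transcripts of the targeted Hox genes were counted at low levels in blood endothelium of both genotypes. Hoxa9 was counted 52, 148, 4 and 239 times in the endothelial cells, or 72.7, 106, 22.1 and 106 CPM, and in other cells it stood at 127 to 170 CPM. Hoxa10 was at 29.3, 69.4, 5.52 and 42.1 CPM, with 100 to 182 CPM elsewhere. Hoxa11 was at 1.40, 12.9, 0 and 8.42 CPM; the 0 counts in mutant 1 allow up to 16.5 CPM. Hoxd9, Hoxd10 and Hoxd11 were at or below 17.2 CPM in the endothelial cells of every library. The wildtype and mutant ranges overlapped for each of the 6 genes. Because a 3′ tag need not lie in the altered part of a gene, and the labels do not describe the alleles, these counts do not check the genotype labels. The 38 Hox genes found in the tables summed to 442, 645, 480 and 589 CPM in blood endothelium and 1386 to 1750 CPM in the other cells, and 0 of the 18 that could be tested passed the test between genotypes described below. A UMI of any of them was found in 65.7% to 77.7% of endothelial cells and in 86.1% to 89.5% of other cells. In the sub-cluster of endothelial cells that also carried stromal and epithelial transcripts (sub-cluster 4 below) the sum was 1219 CPM, against 416 to 521 CPM in the others. The part of free RNA or of RNA from other cells in these counts was not tested.

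The endothelial cells were not uniform. Cells of all libraries were clustered together after levels were centred and scaled within each library. The rule genes, haemoglobin, mitochondrial, ribosomal protein and Hox genes, Xist, Tsix and Y chromosome genes were left out. This gave 5 sub-clusters of 324, 215, 169, 133 and 72 cells. Sub-cluster 2, with 169 cells, was arterial-like: Gja5, Cxcl12, Gja4 and Hey1 were among its top 10 genes by fold, and 12 of the 15 arterial genes were at least 2-fold above the other sub-clusters. Its top 10 also held the haemoglobin gene Hbb-y, the neural gene Stmn2 and the tip cell gene Cxcr4. Erythroid genes summed to 8492 CPM there, against 518 to 2436 CPM in the other sub-clusters. Genes of tip cells, the sprouting vessel ends, summed to 2847 CPM, against 932 to 1458 CPM. The part of erythroid RNA in sub-cluster 2 was not tested. Gja5, a gap junction protein of arteries, was at 247 CPM there and at most 11.1 CPM in the other sub-clusters. Cxcl12, the chemokine made by arterial cells, was at 689 CPM there and next highest, at 131 CPM, in sub-cluster 4. Aplnr (44.0 CPM), Nrp2 (58.7 CPM) and Flrt2 (14.7 CPM), all of the venous list, were low in sub-cluster 2, while sub-cluster 0 held 385, 178 and 169 CPM of them. Sub-cluster 2 was also low in the proliferation gene Top2a, at 62.3 CPM against 1023 CPM in sub-cluster 1 and 610 CPM in sub-cluster 3. These values describe clusters built on the same cells and carry no test.

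Sub-cluster 0, the largest, was led by the haemoglobin gene Hba-x (66.4 CPM, against 13.4 CPM in the other endothelial cells). Its erythroid genes summed to 2436 CPM. Sdpr, F8 and Tcf15 were also among its top 10 genes by fold. Sub-cluster 0 was not named, although it had the highest summed level of venous genes (1560 CPM, against 598 CPM in sub-cluster 2). Sub-cluster 1 was led by replication-dependent histone genes and sub-cluster 3 by mitosis genes such as Cdc20, Ccnb1 and Cenpf. Sub-cluster 4 was led by Postn, Gpc3, Fxyd2, Mgp and Col3a1, genes of stroma and epithelium, and was not named. It held 1219 CPM of the rule genes against 4260 to 6699 CPM in the other sub-clusters, 3129 CPM of stromal genes, and a median of 7603 UMIs per cell against 3826 over all endothelial cells. Whether these are doublets was not tested.

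The arterial-like sub-cluster held 17.9% and 15.4% of endothelial cells in wildtype 1 and 2, and 31.1% and 19.7% in mutant 1 and 2, the mutant 1 value being 14 of 45 cells. The mutant shares both lay above the wildtype shares, but the sub-clusters were formed from genes that could differ between genotypes, so no test was made. Sub-cluster 4 made up 6.43%, 10.1%, 0% and 7.58%. Sub-cluster 0 held 34.0% to 37.8% and sub-cluster 1 held 22.1% to 24.2%.

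**Figure D3:**
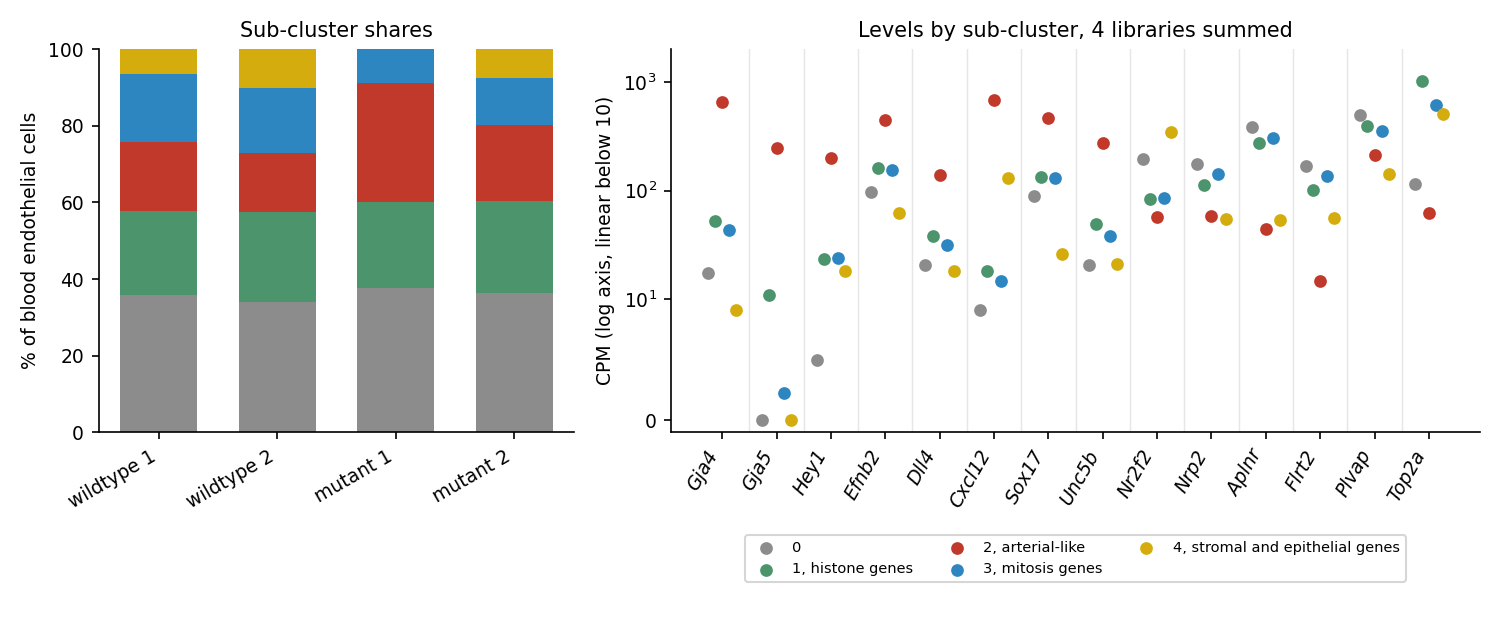
Left, the share of each sub-cluster among blood endothelial cells by library. Right, CPM of the summed counts in each sub-cluster over the 4 libraries on a log axis that is linear below 10, for 8 arterial genes, 5 venous or capillary genes and Top2a; the arterial-like sub-cluster is highest for all 8 arterial genes and lowest for Flrt2, Aplnr and Top2a.

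To compare vessel types and cell cycle between genotypes at equal depth, each endothelial cell was thinned to 1000 UMIs, leaving out 10, 30, 3 and 33 cells with fewer. At least 1 UMI of the 15 arterial genes was then found in 57.7%, 45.3%, 69.0% and 59.9% of the cells, and in 29.0% to 46.9% of other cells treated alike. Without thinning these shares were 87.1%, 75.5%, 84.4% and 87.4%. Both mutant libraries were above both wildtype libraries after thinning, with means of 64.5% ± 6.47 and 51.5% ± 8.77 (SD, n = 2 each) and p = 0.333 in the two-sided exact permutation test, the smallest that 2 against 2 libraries can give (0.667 adjusted over 6 lists). Unthinned, mutant 1 lay between the wildtype libraries. Without the mt- limit the thinned arterial shares were 60.6%, 47.5%, 61.9% and 57.7%, with mutant 2 between the wildtype libraries (p = 0.667, exact permutation test). Mutant 1 lost no cell to that limit, so its values of 69.0% and 61.9% differ by the random draw of UMIs. Shares for the 10 venous genes were 55.4%, 51.4%, 50% and 68.9% (p = 1, exact), and for the 11 tip cell genes, which mark sprouting vessel ends, 76.2%, 52.9%, 69.0% and 77.6% (p = 0.667, exact). In other cells treated alike the venous shares were 34.6% to 46.6% and the tip cell shares 26.1% to 43.5%. The 10 glomerular endothelial genes were found in 26.9%, 25.4%, 16.7% and 30.6% of endothelial cells and in 24.8% to 42.4% of other cells, and that share was read as background. Unthinned, the venous shares were 83.6%, 75.2%, 64.4% and 90.3%, the tip cell shares 95.7%, 82.4%, 86.7% and 97.2%, and the glomerular shares 59.3%, 55.9%, 44.4% and 65.2%.

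Genes of the G2 and M phases were found in 86.2% and 89.5% of thinned wildtype cells and in 71.4% and 77.6% of thinned mutant cells. The 2 genotypes did not overlap, and the exact p was again 0.333 (0.667 adjusted). Other cells of the same libraries gave 76.9%, 83.6%, 70.4% and 70.5%, so that these shares too were lower in both mutant libraries. S phase genes were found in 90.0%, 89.1%, 83.3% and 84.6% (p = 0.333, exact). Other cells treated alike gave 89.8%, 89.6%, 81.0% and 83.9%, close to the endothelial values and also lower in both mutant libraries. Without thinning, the G2 and M shares were 94.3%, 97.7%, 88.9% and 90.8%, and the S phase shares 95%, 94.8%, 91.1% and 95.3%. Ube2c, which drives exit from mitosis, was at 376, 454, 226 and 264 CPM. The wildtype libraries lay above the mutant libraries, with a log2 fold change of -0.78 (SE 0.38, edgeR adjusted p = 1). Of 26 S phase genes 24 had a log2 fold change below 0 and of 25 G2 and M genes 21 did, with medians of -0.34 and -0.35 beside 0.00295 over all genes tested; in other cells the medians of the same lists were -0.56 and -0.17. None passed the test.

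Differences between the genotypes within blood endothelium were tested on counts summed per library, with edgeR's quasi-likelihood test over 8993 genes. At an adjusted p under 0.05, 0 genes (0%) passed. At an unadjusted p under 0.05 there were 387 genes (4.3%), 273 higher and 114 lower in the mutant, and DESeq2 called 3 genes (0.0334%). Of all 8993 genes 4519 had a fold change above 0 and 4474 below 0. Counts of list genes given below are to be read beside these numbers. The lists share genes, such as Gja5 in the arterial and junction lists, so their counts are not independent of each other. In the other cells the same edgeR test called 217 of 15638 genes (1.39%), on sums of far more cells. When 1 library was left out, the count was 28 (wildtype 1 omitted), 16 (wildtype 2 omitted), 39 (mutant 1 omitted) or 50 (mutant 2 omitted), where the lone library of a genotype is assumed to vary like the pair of the other. Keeping the cells with lymphatic UMIs gave 28. Genotypes did not overlap in CPM for 2869 of the 8993 genes (31.9%), with both mutant libraries above in 16.6% and below in 15.3%, and statements below that single genes did not overlap are read against that share. Fold changes in blood endothelium are mutant over wildtype on the log2 scale, with edgeR's p adjusted over the 8993 genes unless another test, cell set or left-out library is named, which has its own set of tested genes. In the other cells the medians of lists used below were 0.52 for endothelial transcription factors, 0.41 for arterial and 0.90 for venous genes. They were 0.87 for the growth factor and angiopoietin list, 0.53 for BMP and TGF-β genes and 0.46 for basement membrane genes. Notch genes had -0.09, caveolae and transport genes 0.04, junction genes -0.09 and immediate early genes 0.05, beside -0.07 over 8972 genes. In blood endothelium the 7 rule genes had a median of 0.50 (6 above 0) and the 16 independent endothelial genes 0.17 (11 above 0). The 9 tested stromal genes had 0.84 (6 above 0). All 6 tested nephron epithelium and all 4 tested ureteric genes were below 0 (medians -1.01 and -2.09). Whether the lists below share a shift of endothelial genes in general was not tested.

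Among 30 endothelial transcription factors, 27 were tested, 22 had a fold change above 0 (median 0.43, beside 0.00295 over all genes), 6 had an unadjusted p under 0.05 and none passed. Klf2, a factor induced by flow that keeps endothelium quiescent, was at 40.5 and 38.6 CPM in the wildtype libraries and at 116 and 171 CPM in the mutant libraries. The genotypes did not overlap, and the fold change was 1.86 (SE 0.39, adjusted p = 0.169). Klf2 passed in 3 of 15 alternatives (adjusted p = 0.00689 without mutant 1, 0.0106 with lymphatic cells kept and 0.0305 without the filter on low counts), and over all 15 the adjusted p ran up to 0.427. The immediate early genes, which respond to tissue dissociation among other stimuli, summed to 594, 517, 833 and 762 CPM in the endothelial cells and to 1068, 379, 550 and 672 CPM in the others. Of 10 tested, 9 had a fold change above 0 in blood endothelium (median 0.62) and 1 an unadjusted p under 0.05; their part in the Klf2 values was not tested. In the other cells Klf2 was at 2.02, 2.18, 7.99 and 16.0 CPM, where it passed the test with a fold change of 2.38 (adjusted p = 0.00541). The difference between the 2 effects was -0.66 (adjusted p = 0.868).

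Tcf15 (mm10, chr2:152143561-152149097), a basic helix-loop-helix factor known from somites and, with Meox2, from heart capillaries that take up fatty acids, was at 9.78 and 22.2 CPM in wildtype and at 210 and 73.5 CPM in mutant endothelium. UMIs of it were found in 4.29%, 9.15%, 44.4% and 25.6% of the cells. The genotypes did not overlap; the fold change was 2.92 (SE 0.60, adjusted p = 0.193). DESeq2 called it (log2 fold change 3.09, adjusted p = 0.0287), as did edgeR without each library in turn (1.97 to 3.77, adjusted p at most 0.0204) and with the replicate number as a block (2.78, adjusted p = 0.000157). It passed in 8 of 15 alternatives in all. In the other 7 the adjusted p ran from 0.0864 without sub-cluster 4 to 0.354 without cells carrying UMIs of another lineage, and the fold change from 2.68 to 2.94. In the other cells its level was 0.898 to 3.20 CPM in every library. It was seen in arterial-like cells (16, 37, 200 and 94 CPM) and in the remaining endothelial cells (9, 21, 212 and 70 CPM) of each library with the same order of genotypes. Its partner Meox2 was at 6.99, 13.6, 11.0 and 7.09 CPM, with overlapping genotypes.

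Sox17, a SoxF factor of arteries, was at 40.5, 130, 204 and 184 CPM, a fold change of 1.10 (SE 0.47, adjusted p = 1). Without wildtype 2 it was 2.28 (adjusted p = 0.0400), and without wildtype 1 it was 0.49. Sox18, of the same family and chosen here after its values were seen, was at 37.7, 120, 55.2 and 23.5 CPM with overlapping genotypes. Sox7 was at 55.9, 41.5, 49.6 and 80.6 CPM. Robo4, a stabilising receptor of endothelium, was at 53.1, 52.2, 105 and 102 CPM (0.93, SE 0.40, adjusted p = 1), with no overlap between genotypes.

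Of 15 arterial genes 13 were tested and 11 had a fold change above 0 (median 0.70), 4 of them with an unadjusted p under 0.05. Gja5 was at 16.8 and 17.9 CPM in wildtype and 71.7 and 44.7 CPM in mutant endothelium (1.58, SE 0.50, adjusted p = 0.908). Sema3g, a secreted guidance cue of arteries, was at 23.8, 5.72, 105 and 29.7 CPM (2.04, SE 0.79, adjusted p = 1). Its fold change was 3.21 without wildtype 1 (adjusted p = 0.0315), 3.12 without mutant 2 (adjusted p = 0.000576), 1.26 without wildtype 2 and 1.02 without mutant 1. Neither gene overlapped between genotypes, and for both the mutant 1 value, the highest, came from 45 cells of which 14 were arterial-like. Within arterial-like cells alone Gja5 was at 173, 187, 325 and 279 CPM. Among Notch pathway genes 10 of 12 tested were above 0 (median 0.35), with 1 at an unadjusted p under 0.05: Nrarp, a feedback target of Notch, at 19.6, 15.7, 44.1 and 45.2 CPM (1.31, SE 0.49, adjusted p = 1). The ligand Dll4 was at 40.5, 30.1, 66.2 and 46.9 CPM and the receptor Notch4 at 50.3, 19.3, 71.7 and 48.3 CPM. For Dll4 the genotypes did not overlap, for Notch4 they did.

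Among the venous genes 7 of 10 were tested and 4 were above 0 (median 0.08). Nrp2, a co-receptor of venous and lymphatic endothelium, was at 85.2 and 40.1 CPM in wildtype and 121 and 182 CPM in mutant (1.33, SE 0.40, adjusted p = 0.716). With lymphatic cells kept it passed (1.86, adjusted p = 0.0106). Its summed level in the arterial-like cells was 0, 7, 0 and 101 CPM. Aplnr was above both wildtype libraries in both mutant libraries (0.79, SE 0.37, adjusted p = 1), and so was its ligand Apln, at 15.4, 30.1, 33.1 and 71.3 CPM (1.23, SE 0.49, adjusted p = 1). The venous factor Nr2f2 was at 112, 162, 27.6 and 161 CPM, and its lowest value was that of mutant 1.

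Of 8 tested genes of the vascular endothelial growth factor and angiopoietin list, 6 were above 0 (median 0.42) and 3 had an unadjusted p under 0.05. Tek, the angiopoietin receptor, was at 207, 109, 82.7 and 184 CPM, and Nrp1, co-receptor of Kdr, at 503, 316, 557 and 394 CPM. Ptprb, the phosphatase that restrains Tek, was at 136, 53.7, 188 and 168 CPM (0.93, SE 0.41, adjusted p = 1). Edn1, the vasoconstrictor endothelin, was at 4.19, 7.16, 49.6 and 27.5 CPM with no overlap (2.44, SE 0.64, adjusted p = 0.417), while its receptor gene Ednrb was at 583, 296, 204 and 410 CPM. Tgfb1 was at 9.78, 17.2, 77.2 and 40.7 CPM (1.86, SE 0.54, adjusted p = 0.602), and in other cells it passed the test (2.79, adjusted p = 0.022). In blood endothelium it passed without mutant 2 (2.58, adjusted p = 0.0255) and not without any other library (adjusted p of 0.408 or more). Of 14 tested receptors and targets of BMP and TGF-β signalling 9 were above 0; Bmpr2 was at 11.2, 10.0, 11.0 and 40.3 CPM and Id2 at 201, 331, 93.8 and 199 CPM, each with an adjusted p of 1.

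Basement membrane genes, which encode the sheet under the endothelium, had 16 of 18 tested members above 0 (median 0.51) and 5 at an unadjusted p under 0.05. Sparcl1, a matricellular protein of quiescent vessels, was at 197 and 131 CPM in wildtype and 723 and 448 CPM in mutant cells, without overlap (1.86, SE 0.42, adjusted p = 0.193). Sparcl1 passed without mutant 2 (2.31, adjusted p = 0.000528), without the filter on low counts and with lymphatic cells kept. When wildtype 1 was omitted the adjusted p was 0.28, when wildtype 2 was omitted it was 1, and when mutant 1 was omitted it was 0.355 with a fold change of 1.33. In the other cells Sparcl1 was at 86.1, 40.9, 275 and 273 CPM and passed the test (2.02, adjusted p = 0.00352), and the summed stromal genes there were 2117, 1102, 6502 and 7131 CPM. The part of other cells' RNA in the endothelial value was not tested. Lama4, the endothelial laminin chain, was at 93.6, 59.4, 143 and 210 CPM (1.24, SE 0.38, adjusted p = 0.716), and Lamb1 at 81.0, 71.6, 143 and 147 CPM. Col4a1, the main collagen chain of this sheet, was at 584, 308, 552 and 680 CPM, with overlapping genotypes.

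Genes of caveolae, the membrane pits of capillary endothelium, had 11 of 14 tested members above 0 together with transport genes (median 0.59). Cav1, their coat protein, was at 144, 118, 287 and 223 CPM (0.95, SE 0.38, adjusted p = 1). Sdpr, which shapes caveolae, was at 218, 147, 397 and 381 CPM (1.10, SE 0.38, adjusted p = 1). In lipid handling, the fatty acid receptor Cd36 was at 29.3, 20.04, 99.3 and 69.1 CPM (1.71, SE 0.47, adjusted p = 0.476). It passed without mutant 2 (2.19, adjusted p = 0.0394) and with lymphatic cells kept (2.06, adjusted p = 0.0217). The carrier Fabp5 was at 898, 834, 623 and 589 CPM, so that its mutant values were the lower ones. The genotypes did not overlap for Cav1, Sdpr, Cd36 or Fabp5, of which the first 3 were named for a small p. Gpihbp1, which anchors lipoprotein lipase on capillaries, was at 93.6, 73.7, 127 and 129 CPM.

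Among 16 tested junction genes 14 were above 0 (median 0.67), and 3 of them, Gja5 included, had an unadjusted p under 0.05. Cldn5, the main tight junction claudin of endothelium, was at 141, 326, 618 and 173 CPM, and the genotypes overlapped. Egln3, an oxygen-sensing hydroxylase, was at 130, 108, 38.6 and 68.2 CPM in endothelium and 1.92 to 6.24 CPM in other cells (-1.07, SE 0.40, adjusted p = 1), with no overlap. Of the 18 tested hypoxia and glycolysis genes 13 were below 0 (median -0.40), and in the other cells the median of that list was -0.65. Ptgs1, a prostaglandin synthase, was at 23.8, 29.3, 27.6 and 77.1 CPM, and the vessel wall genes Vwf, Sele and Selp stayed at or below 6.64 CPM in every library.

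**Figure D4:**
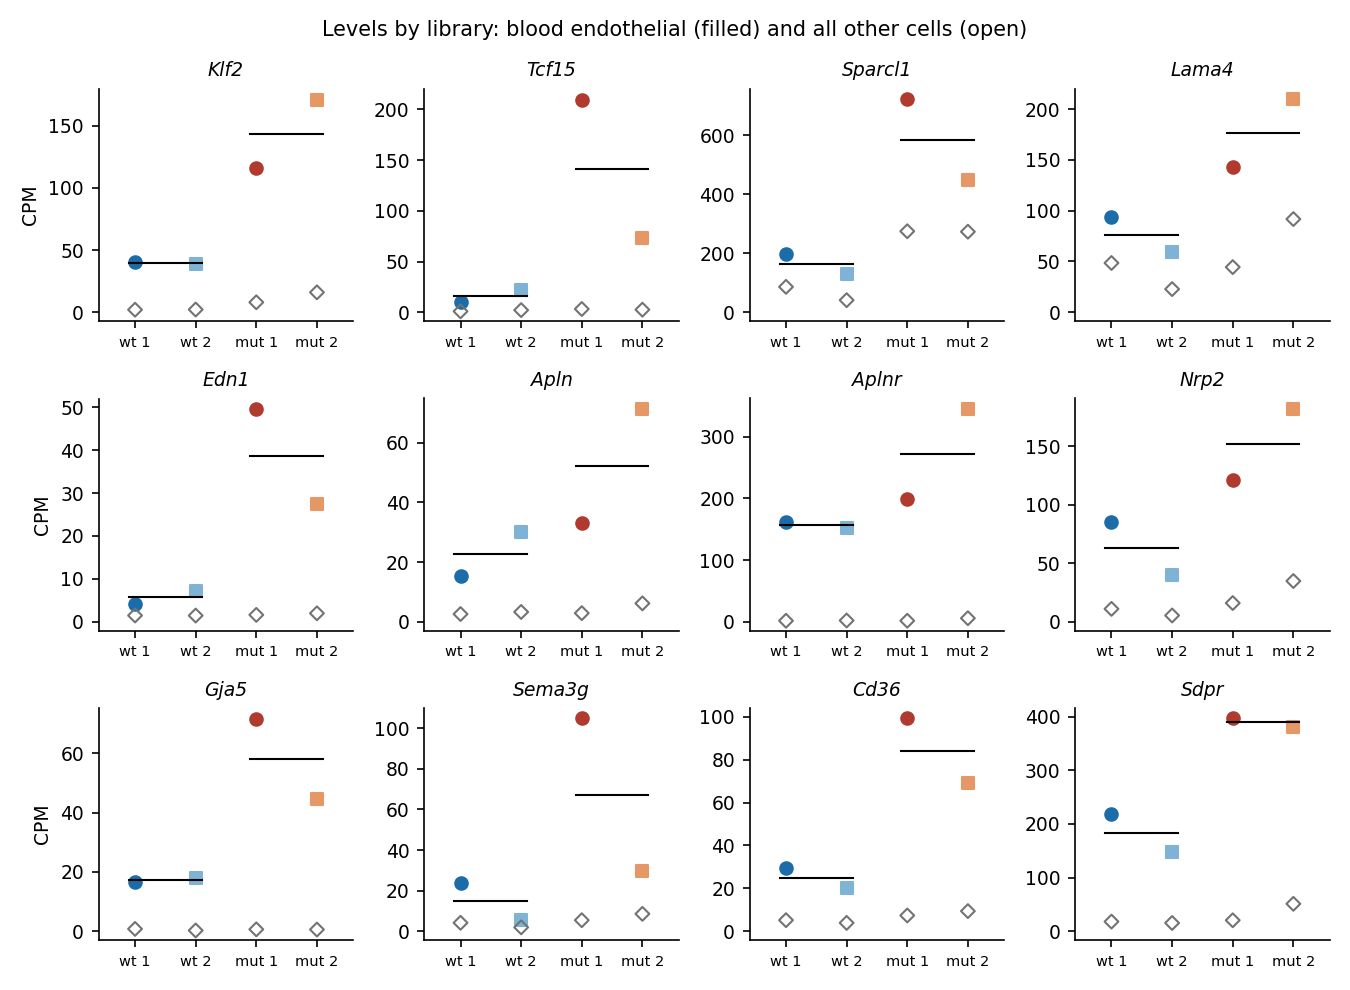
CPM of 12 genes in blood endothelial cells (filled points, with the mean of the 2 libraries of a genotype as a line) and in all other cells within the mt- limit (open diamonds), by library; wt is wildtype and mut is mutant. In blood endothelium both mutant values lie above both wildtype values for all 12 genes, as for 16.6% of all genes tested; the 12 were chosen with small p-values in view, and none passed the edgeR test.

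Transcripts of other lineages were part of the contrast. All 5 tested haemoglobin and erythroid genes were below 0 (median -2.48), with summed levels of 1548, 5577, 883 and 460 CPM in endothelial cells and 1535, 16964, 561 and 3573 CPM in the others. Hbb-bs, 1 of the 3 genes DESeq2 called, was at 429, 1021, 177 and 121 CPM (-2.36, SE 0.49, adjusted p = 0.169). Without the top Scrublet scores its fold change was -0.39 (adjusted p = 0.999), without wildtype 2 it was -1.53 (adjusted p = 0.493), and it passed without wildtype 1 (-2.88, adjusted p = 0.00203) and without mutant 1 (-2.75, adjusted p = 0.000415). Its near-identical copy Hbb-bt can share its reads. Fxyd2, a tubule ion transport subunit, was at 85.2, 30.1, 5.52 and 6.64 CPM (-3.16, SE 0.63, adjusted p = 0.128) and was found in 2.22% to 4.29% of the endothelial cells. It passed without wildtype 2 (-3.73, adjusted p = 0.000242) and without mutant 1 (-3.17, adjusted p = 0.000195). The ureteric gene Calb1 was at 19.6, 22.2, 0 and 2.22 CPM and passed without mutant 1 (-3.34, adjusted p = 0.02). Tsix, the third gene DESeq2 called, passed edgeR without each library in turn (2.78 to 4.66). It was at 2.79, 8.59, 110 and 48.7 CPM, and Xist, which it overlaps on the opposite strand of the X chromosome, at 0, 90.2, 513 and 229 CPM; without a stated strand their reads cannot be told apart, and the sex of the embryos is not given. Leaving out sub-cluster 4 gave 4 genes that passed, among them Tsix (3.82, adjusted p = 0.0117) and Hbb-bs (-2.40, adjusted p = 0.0464).

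Whether the genotype difference in blood endothelium was that of the rest of the kidney was tested as an interaction, with both cell sets of each library and the library as a block. Of 12877 genes 134 passed (1.04%), 29 with a higher and 105 with a lower effect in blood endothelium than in the other cells, and 25 of the 134 also differed between genotypes in the other cells. The largest positive differences were those of Cxcr4, Meox2, Meox1, Hpgd, Hmcn1 and Sorbs2, and the largest negative ones those of Tmem52b, Sema5b, Ggt1, Tmem27, Clic5 and Cd38. In the summed other cells, fewer cells of a type and less RNA per cell cannot be told apart. There the nephron progenitor genes summed to 605, 570, 150 and 208 CPM and the stromal genes to 2117, 1102, 6502 and 7131 CPM, and their part in these differences was not tested.

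Cxcr4, the receptor for Cxcl12, was at 9.78 and 15.03 CPM in wildtype and 77.2 and 21.7 CPM in mutant endothelium. In the other cells it was at 12.9, 12.4, 3.84 and 2.54 CPM. The fold change of Cxcr4 in blood endothelium was 1.56 and did not pass the edgeR test (unadjusted p = 0.028). In the other cells it was -2.21 and passed (edgeR adjusted p = 0.00787). The 2 effects differed by 3.42 (adjusted p = 9.75e-08), which tests their difference and not a rise in mutant endothelium. Within blood endothelium Cxcr4 was at 31, 127, 275 and 101 CPM in arterial-like cells and at 8, 3, 21 and 9 CPM in the rest. Cxcr4 was among the top 10 genes of that sub-cluster, so these levels only describe it. Meox2 was at 28.05, 31.3, 1.60 and 2.98 CPM in the other cells, where it passed the test (-3.72, adjusted p = 4.52e-05), while blood endothelium held 6.99 to 13.6 CPM in both genotypes; the effects differed by 2.87 (adjusted p = 0.00185). Meox1 was alike, with 16.8, 18.9, 7.03 and 6.15 CPM elsewhere and 23.8, 14.3, 22.1 and 25.7 CPM in endothelium, a difference of 2.03 (adjusted p = 0.00275). Both are homeobox genes, known from the mesoderm, and Meox1 is also among the nephron progenitor genes whose sum is given above.

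Cd38, an enzyme that consumes NAD, was at 144, 92.3, 77.2 and 88.6 CPM in blood endothelium and rose in the other cells from 2.69 and 3.10 CPM in wildtype to 16.3 and 17.7 CPM in mutant (2.39, adjusted p = 0.002). The effects differed by -2.90 (adjusted p = 3.29e-13). Emcn, singled out after its values were seen, had the same pattern: 450, 321, 309 and 437 CPM in endothelium, and 7.63, 8.16, 28.8 and 49.6 CPM elsewhere, a difference of -2.30 (adjusted p = 1.98e-28). The other cells include barcodes with fewer than 3 UMIs of the rule genes and cells left out for a lymphatic UMI. The rule genes summed to 32.2, 48.9, 28.1 and 95.3 CPM there, and the part of such cells in the Emcn values was not tested. Clic5 was at 32.1, 23.6, 0 and 33.2 CPM in endothelium and 7.63, 3.45, 16.0 and 43.1 CPM elsewhere. Tmem52b, Sema5b, Ggt1 and Tmem27 held 0 counts in mutant 1 endothelium and at most 8 counts in mutant 2, so that their fitted differences depend on the prior count and are no bound. Tmem52b had 55 of its counts in wildtype 1. As scaled for the fit, wildtype 1 and 2 endothelium held 8.55 and 16.5 CPM of Ggt1, against 20.2 and 14.0 CPM in their other cells. For Tmem27 these values were 8.55 and 16.5 against 19.5 and 22.2 CPM, and for Tmem52b 78.4 and 3.93 against 46.2 and 19.4 CPM. Only Sema5b was higher in endothelium of both (17.1 and 17.3 against 3.15 and 2.11 CPM). The part of other cells' RNA in these values was not tested. Hpgd, which inactivates prostaglandins, was at 61.5, 28.6, 99.3 and 92.6 CPM in endothelium and at 24.3, 18.2, 14.7 and 12.2 CPM elsewhere, a difference of 1.91 (adjusted p = 2.32e-05). Without the library block 0 genes passed, with 254 at an unadjusted p under 0.05, and the count was 28 when wildtype 1 was omitted, 20 when wildtype 2 was, 104 when mutant 1 was and 49 when mutant 2 was.

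**Figure D5:**
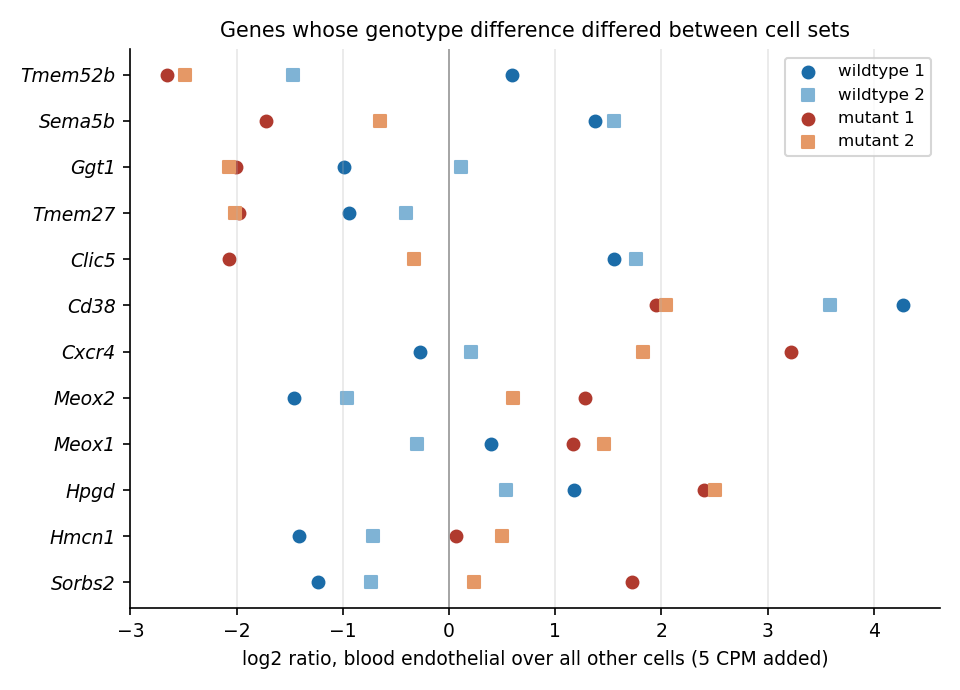
Log2 ratio of the level in blood endothelial cells over that in all other cells, with 5 CPM added to each, for the 6 genes with the largest lower and the 6 with the largest higher genotype effect in blood endothelium; each point is 1 library. For all 12 genes both mutant libraries lie on the same side of both wildtype libraries, which the choice of genes required.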

How the data were processed

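The deposited files hold whole-number counts of UMIs per gene and cell barcode, 1 table per library, with at least 500 genes in every barcode, per the file contents. Bowtie2 2.2.7 and the mm10 build are named in the submitters' processing notes; strand handling, annotation and the collapsing of UMIs are not given in the sources used here, and an error there would bear most on overlapping and near-identical genes.

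Cells were selected as described above, and the members and gene lists were chosen with earlier results of these data known. Counts were summed over the selected cells of each library and over all other cells within the mt- limit. Genotypes were compared with edgeR 4.0.16 (R 4.3.3; TMM scaling, filterByExpr, quasi-likelihood F test, Benjamini-Hochberg adjustment over all genes tested, threshold 0.05), with 2 libraries per genotype and no block. The interaction fit held both sums of each library, with the library as a block. The scripts were tested on simulated data. DESeq2 1.42.0 was an alternative, with other filters, cell selections and left-out libraries. Sub-clusters came from scanpy 1.11.5 and leidenalg 0.10.2 (1000 variable genes, 15 components, 15 neighbours, resolution 0.5). Depth per library is given above; mutant 1, with 45 cells, limits every genotype comparison.

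Genes were named by a rule. It took all selection genes, the 20 leading genes, and those past the genotype test or else the 2 with the smallest p from each list. It also took the 6 largest interaction differences in each direction with a mean of at least 10 CPM in blood endothelium of either genotype. For these the log2 ratio of endothelial over other cells, and not the CPM, had to show no overlap between genotypes. Other named genes, such as Sox18, Cldn5 and Nr2f2, were added as well-known members of their groups after their values were seen. Of the listed genes, 7 were matched through older symbols and 1 occurred in no table.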

Additional observations from a re-analysis of the deposited data

Results flagged for a closer look

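For 12 genes the genotype difference in blood endothelium departed from that in the other cells by the interaction test, which is what singled them out. The differences (log2, effect in blood endothelium minus effect in other cells) were -4.87 for Tmem52b, -4.09 for Sema5b, -3.69 for Ggt1, -2.93 for Tmem27, -2.91 for Clic5 and -2.90 for Cd38. They were 3.42 for Cxcr4, 2.87 for Meox2, 2.03 for Meox1, 1.91 for Hpgd, 1.89 for Hmcn1 and 1.88 for Sorbs2. Hmcn1, a large matrix protein, was at 11.2, 9.30, 22.1 and 27.5 CPM in blood endothelium and 38.0, 18.5, 20.8 and 17.9 CPM elsewhere (wildtype 1, wildtype 2, mutant 1, mutant 2; edgeR adjusted p = 0.0108). Sorbs2, an adaptor of the actin cytoskeleton, was at 11.2, 10.0, 44.1 and 19.05 CPM and at 33.0, 19.9, 9.91 and 15.5 CPM (adjusted p = 0.0177). Mutant 1 gave 0 counts in blood endothelium for Tmem52b, Sema5b, Ggt1, Tmem27 and Clic5. Over the alternatives tried for these 12 genes, 35 values kept the call and 37 lost it, and none changed sign. Cxcr4 (3.163 to 4.202) and Cd38 (-3.38 to -2.51) passed without each library in turn. The call was lost for Clic5 without wildtype 2 (-2.50), and for Sema5b, Ggt1, Meox1 and Hpgd without wildtype 2 (-3.67, -2.64, 1.56 and 1.57) or mutant 2 (-11.9, -9.26, 1.59 and 1.698). Meox2, Hmcn1 and Tmem27 passed only without mutant 1 (2.81, 2.07 and -2.75), Sorbs2 only without mutant 2 (3.31) and Tmem52b only without wildtype 2 (-5.62), among the 4 libraries left out. All 12 lost the call without the library block.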

How the results depend on the processing

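The count of genes that differed between genotypes in blood endothelium was 0 with edgeR. It was 3 with DESeq2, 23 without a filter on low counts, 1 without the mt- limit and 16 to 50 when 1 library was left out. Alternatives added after seeing the data gave 28 with lymphatic cells kept and 4 without sub-cluster 4. With the replicate number as a block (replicate block) it was 10; same-numbered libraries did not deviate together (r = -0.022 over 8993 genes), so the numbers are not taken to pair the libraries. For the 34 genes run singly, 461 alternative values kept their direction and side of the threshold, 43 passed it, and none reversed; other named genes were not run. The interaction count of 134 was 87 without the filter, 0 without the library block and 20 to 104 with 1 library left out; 17 to 84 of the 134 genes remained called. The share difference of 0.641 points was -0.363 without the mt- limit and -1.35 to 2.63 with 1 library left out. Left-out libraries gave differences of -3.42 to 15.5 points for venous, -2.81 to 20.4 for tip cell and -9.48 to 4.45 for glomerular genes, and venous genes gave -2.003 without thinning. The cause of these changes was not tested. The arterial, S phase and G2 and M differences kept their sign without each library (6.78 to 19.2, -6.23 to -4.99 and -16.4 to -10.2 points). The arterial difference of 12.98 points was 5.74 without the mt- limit and 4.63 without thinning, and the genotypes overlapped in both settings. Depth limits mutant 1, where 3 counts are 16.5 CPM.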
